A study of Homo sapiens with 84 samples.

Results

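The genes described here are the 33 genes of cholesterol and fatty acid synthesis, taken by symbol from the 58395 gene rows of the count files, and each of the 33 matched exactly 1 row. They fall into 8 genes of the mevalonate steps, 11 genes of the squalene and sterol steps, 5 regulators, 2 genes of sterol transport and cholesterol ester hydrolysis, and 7 genes of fatty acid synthesis and desaturation. Their 3′ RNA counts were followed in Kyse30, an esophageal squamous carcinoma cell line with an EGFR amplification, and in FaDu, a pharyngeal squamous carcinoma cell line. Serum-starved cells of both lines were kept in serum-free medium and stayed untreated, or received recombinant Fc, EpEX-Fc (the ectodomain of EpCAM fused to Fc), EGF at 1.8 nM (EGFlow), EGF at 9 nM (EGFhigh), or EGFhigh together with EpEX-Fc. Libraries were made at 6 and 72 h, and untreated cells also at 0 h. Untreated cells were the control for EGF and Fc was the control for EpEX-Fc, and the study asked how the transcriptome responds to EGF and EpEX-Fc, both ligands of EGFR, in an epithelial-to-mesenchymal transition. All groups shared the serum-free medium, and each line is a single established cell line. Kyse30 had 43 libraries, with 3 or 4 per group, and FaDu had 41, of which the 20 labelled replicate 3 or 4 were analysed. In those 20, the untreated, Fc, EpEX-Fc, EGFlow and EGFhigh groups at 6 h and the Fc and EGFhigh + EpEX-Fc groups at 72 h held 2 libraries, and each other group held 1.

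Cells make cholesterol from acetyl-CoA through mevalonate, the isoprenoids, squalene and lanosterol, and they make fatty acids from acetyl-CoA through malonyl-CoA. The sterol regulatory element-binding proteins (SREBPs), encoded by SREBF1 and SREBF2, are membrane-bound transcription factors that switch on both routes. SCAP escorts them from the endoplasmic reticulum to the Golgi, where they are cut and released, and the INSIG proteins hold SCAP back when sterols are plentiful. INSIG1 is itself an SREBP target, so that its transcript is widely used as a readout of the pathway. Medium without serum holds no lipoproteins, the usual outside source of cholesterol.

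The promoters of 5 members whose transcripts moved with time in FaDu are shown because each carries letters known to be read by SREBPs or by NF-Y, a factor that binds beside them. The sequences are the 250 bases before the RefSeq start (GRCh38.p14), 5′ to 3′ on the strand of the gene, and capitals mark the SRE core CACNCCAC and the CCAAT box, each on either strand.
INSIG1, chr7:155297628-155297877, plus strand: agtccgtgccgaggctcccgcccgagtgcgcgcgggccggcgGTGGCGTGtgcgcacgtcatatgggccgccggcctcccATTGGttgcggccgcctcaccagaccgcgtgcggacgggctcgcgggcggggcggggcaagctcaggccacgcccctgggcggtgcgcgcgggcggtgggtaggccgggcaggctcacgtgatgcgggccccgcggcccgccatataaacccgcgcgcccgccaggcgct
SREBF2, chr22:41832855-41833104, plus strand: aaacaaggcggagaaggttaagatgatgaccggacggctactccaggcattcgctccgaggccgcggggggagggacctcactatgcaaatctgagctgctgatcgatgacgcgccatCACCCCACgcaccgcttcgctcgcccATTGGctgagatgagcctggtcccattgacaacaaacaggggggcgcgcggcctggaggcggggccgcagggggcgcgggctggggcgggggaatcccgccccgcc
SCD, chr10:100346983-100347232, plus strand: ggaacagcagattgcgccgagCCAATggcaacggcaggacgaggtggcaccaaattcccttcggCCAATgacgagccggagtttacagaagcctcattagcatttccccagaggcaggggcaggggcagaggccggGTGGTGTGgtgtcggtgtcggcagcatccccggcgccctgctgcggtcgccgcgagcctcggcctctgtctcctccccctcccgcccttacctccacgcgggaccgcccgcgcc
LSS, chr21:46228775-46229024, minus strand: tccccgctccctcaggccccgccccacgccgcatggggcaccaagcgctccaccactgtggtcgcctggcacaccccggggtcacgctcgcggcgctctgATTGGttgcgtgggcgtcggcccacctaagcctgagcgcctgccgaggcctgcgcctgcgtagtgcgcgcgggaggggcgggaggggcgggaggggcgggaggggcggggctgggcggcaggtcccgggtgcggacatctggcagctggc
MVD, chr16:88663092-88663341, minus strand: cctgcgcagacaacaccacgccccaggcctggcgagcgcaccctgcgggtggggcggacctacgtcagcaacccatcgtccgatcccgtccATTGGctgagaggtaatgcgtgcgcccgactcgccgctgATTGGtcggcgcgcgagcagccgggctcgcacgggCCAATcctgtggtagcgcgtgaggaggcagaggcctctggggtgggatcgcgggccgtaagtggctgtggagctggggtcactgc
RefSeq promoter windows of 300 bases (250 before and 50 after the start) were matched for 29 of the 33 members. CCAAT was present in the windows of 22 of 29 members (75.86%), against 39.72% of 27305 genes. The SRE core was present in 6 of 29 (20.69%), in IDI1, SC5D, SREBF2, INSIG1, ACACA and SCD, against 7.046% of genes. The longer TCACNCCAC, which contains the core, was present in SREBF2 alone (3.448% of members and 1.388% of genes). The E-box CACGTG, left in lower case, was present in 4 of 29 (13.79%), in LSS, SC5D, SCAP and INSIG1, against 8.775% of genes. A match describes the letters and does not show that a factor binds there.

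Genes at which the values turn lie, in GRCh38 coordinates of GENCODE 29, at chr7:155297776-155310235 (INSIG1, ENSG00000186480), chr22:41833079-41907308 (SREBF2), chr10:100347124-100364834 (SCD), chr21:46188141-46228824 (LSS), chr5:43289395-43313512 (HMGCS1), chr11:71428193-71452868 (DHCR7), chr4:110045846-110199199 (ELOVL6), chr17:82078333-82098332 (FASN) and chr3:172630249-172711218 (NCEH1), and reads were counted over their exons. The last 1000 bases of 10 members overlap another annotated gene, for 8 of them on the opposite strand, among which are ACAT2 with TCP1, SREBF1 with RAI1 and FADS1 with FADS2. The strand setting of the counting is not given in the sources used here, so for these members reads of the neighbour could not be told apart. FDPS, CYP51A1, HSD17B7, SCD and FADS2 have annotated pseudogenes. Reads without a unique alignment were tallied in a row that names no gene, so reads that also fit a pseudogene may be missing from these members.

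Total counts ran from 1944948 to 11759799 per library in Kyse30 and from 6217938 to 12442349 in the 20 FaDu libraries, and 3 counts corresponded to at most 1.54 and 0.482 CPM in the shallowest libraries. CPM are a gene's reads in proportion to all reads counted in genes, set to a common library size. The 21 FaDu libraries labelled replicate 1 or 2 stood apart: their median Spearman correlation with the FaDu libraries of replicates 3 and 4 was 0.839 over 19519 genes, below the 0.870 of those replicates 3 and 4 with Kyse30. Where adding them ended calls, this is given beside the result. Summed squamous markers (KRT5, KRT14, KRT17, KRT6A, TP63, CDH1, EPCAM, SFN, DSP and JUP) lay between 1459.8 and 3959 CPM in Kyse30 and between 1993 and 5868 CPM in FaDu, but KRT5 and KRT14 were low in Kyse30, with medians of 2.07 and 0.666 CPM. The 4 leukocyte markers summed to at most 1.75 CPM. The 3 endothelial markers summed to at most 7.63 CPM in Kyse30 and 9.01 CPM in FaDu, mostly CDH5 (medians of 1.77 and 4.59 CPM), while PECAM1 was at 0 in 43 of 43 and 19 of 20 libraries. The 6 fibroblast markers summed to 9.22 to 44.2 CPM in Kyse30 and 7.07 to 15.6 CPM in FaDu, with COL1A1 above 0 in every library and DCN and LUM at 0 in most. Their part in the results was not tested. The labels do not say whether replicates are separate cultures, so p-values measure the spread between these libraries. In bulk RNA, fewer cells of a kind and less RNA per cell cannot be told apart. CPM are given with TMM scaling within each cell line, except those of the cell type markers and of FaDu replicates 1 and 2, which are over total counts. Reads were taken near the 3′ ends of transcripts and may include PCR copies. A member was called in edgeR's quasi-likelihood test at an adjusted p (Benjamini-Hochberg over all genes tested) of at most 0.05 and an absolute log2 fold change over 0.5. Shares of genes called use the same threshold, so they are not the background for counts of members at an unadjusted p under 0.05. Where the share of all genes at that unadjusted p is not printed, such a count has no background here.

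Among the comparisons within a line, the most members were called with time in FaDu. Of the 33 members, 21 were higher and 0 lower in Fc-treated FaDu cells at 72 h than at 6 h (2 libraries each), with a median log2 fold change of 1.31 over the 33 members against 0.03 over the 16022 genes tested. Among all genes tested 2.88% were called in either direction and 0.974% were called higher. The called members were 6 of 8 mevalonate genes, 7 of 11 sterol genes, 5 of 7 fatty acid genes, the regulators SREBF2 and INSIG1, and the sterol carrier STARD4. PMVK, GGPS1, CYP51A1, TM7SF2, NSDHL, SC5D, SREBF1, SCAP, INSIG2, NCEH1, ACACA and FADS2 were not called. Fc was the one FaDu treatment with 2 libraries at both times, so the other treatments are given below as values with no test.

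**Figure D1:**
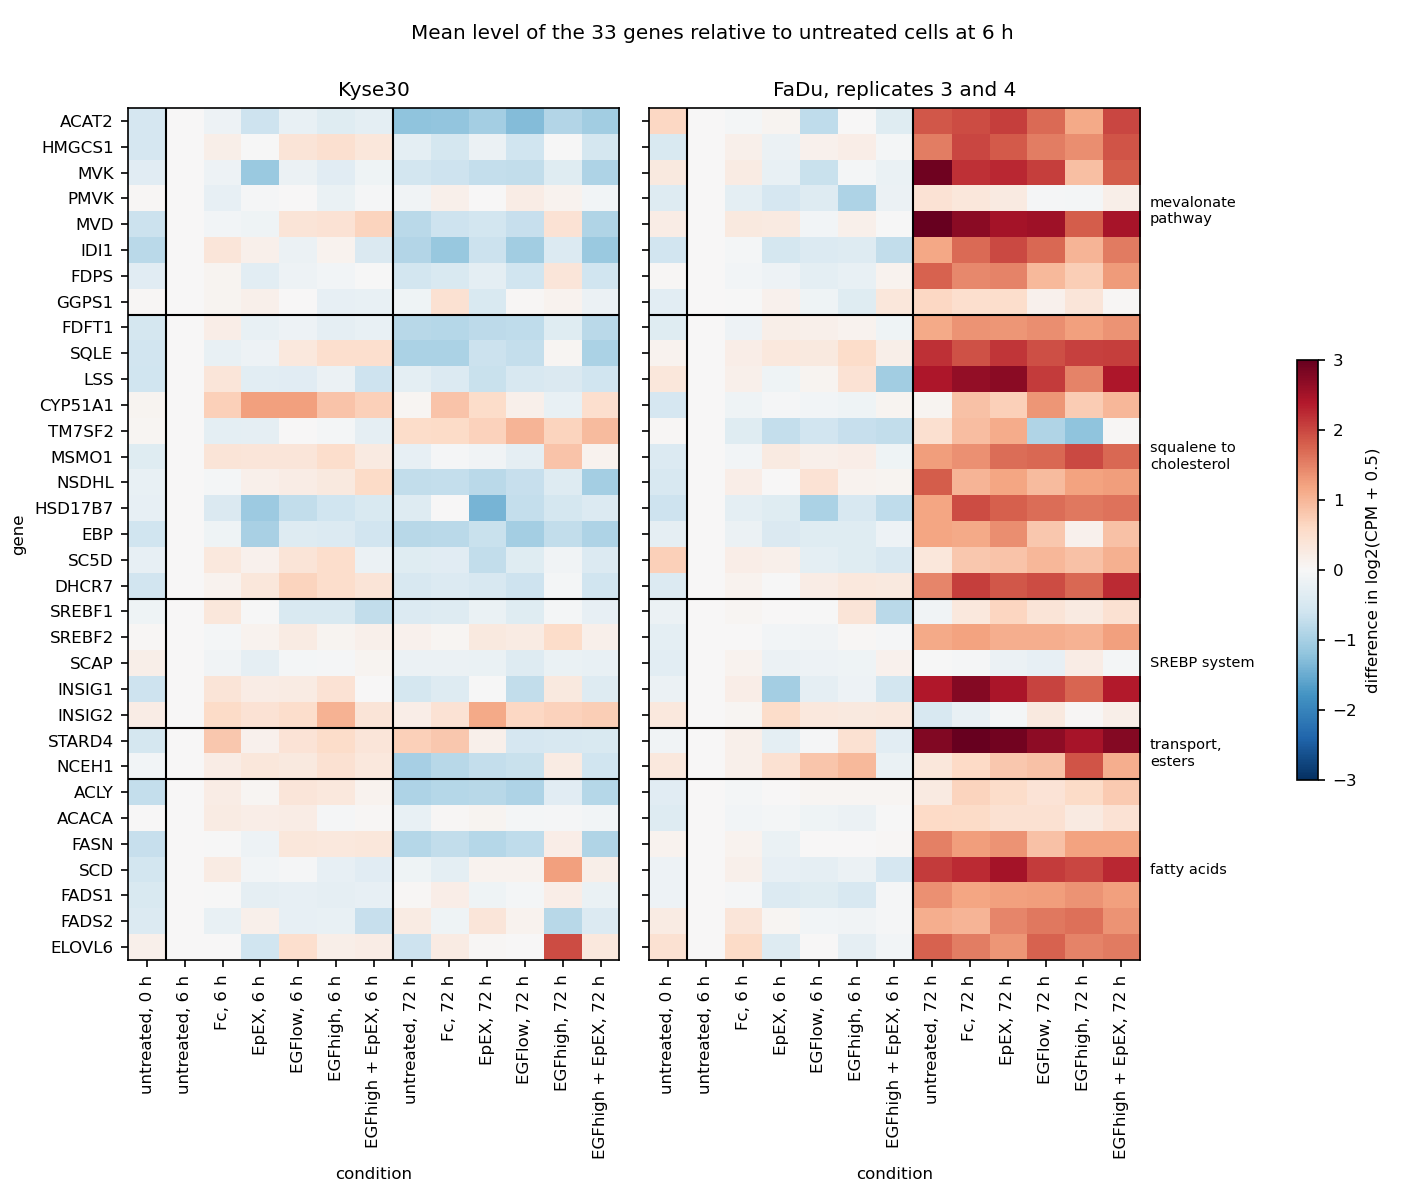
Heat map of the 33 members (rows, ordered by role) over the 13 conditions of Kyse30 and of FaDu replicates 3 and 4 (columns), coloured by the mean log2(CPM + 0.5) minus that of untreated 6 h cells of the same line. The FaDu columns at 72 h are raised over most mevalonate, sterol and fatty acid rows under every treatment, and the Kyse30 columns at 72 h are not.

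Among the regulators, INSIG1, the sterol-sensing brake on SCAP, stood at 15.5 and 20.05 CPM in the Fc libraries at 6 h and at 113 and 101 CPM at 72 h. Both late libraries lay far above both early ones, and the log2 fold change was 2.59 ± 0.24 (SE), adjusted p = 4.29e-06. Over all treatments INSIG1 ran from 7.20 to 20.05 CPM (median 13.2) in the 12 FaDu libraries of 0 and 6 h and from 53.5 to 113 CPM (median 84.7) in the 8 libraries of 72 h, with no overlap. SREBF2, the gene of the SREBP that favours cholesterol synthesis, stood at 66.03 and 86.7 CPM at 6 h and 162 and 188 CPM at 72 h in the Fc libraries. It rose by 1.20 ± 0.19 (SE), adjusted p = 0.00103 on the log2 scale, and its early and late libraries did not overlap under any treatment. SREBF1, which gives the SREBP that favours fatty acid synthesis, stood at 44.8 and 26.4 CPM at 6 h and 46.1 and 40.2 CPM at 72 h. Its ranges over all treatments overlapped (18.7 to 64.4 CPM early and 31.9 to 54.4 CPM late), and the log2 fold change of 0.28 ± 0.41 (SE), adjusted p = 0.803 was not called. SCAP and INSIG2 gave log2 fold changes of -0.15 and -0.29 with overlapping libraries.

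Among the mevalonate genes, HMGCS1, the cytosolic HMG-CoA synthase, stood at 26.5 and 29.7 CPM in the Fc libraries at 6 h and 118 and 87.9 CPM at 72 h, a log2 fold change of 1.87 ± 0.21 (SE), adjusted p = 3.01e-05. Over all treatments it ran from 18.2 to 30.8 CPM (median 25.6) early and from 67.5 to 118 CPM (median 88.3) late, so that the lowest late library was above the highest early one. MVK, mevalonate kinase, stood at 9.95 and 13.97 CPM at 6 h and 51.8 and 43.1 CPM at 72 h (1.98 ± 0.28 (SE), adjusted p = 0.000302). Its late libraries ran from 19.04 CPM under EGFhigh to 79.1 CPM in untreated cells, yet all lay above the highest early library (13.97 CPM). ACAT2, which condenses acetyl-CoA at the entry of the route, MVD, IDI1 and FDPS were also called, with log2 fold changes of 2.06, 2.49, 1.79 and 1.54. GGPS1, which diverts isoprenoids to geranylgeranyl diphosphate, and PMVK gave 0.52 and 0.64 and were not called.

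Among the sterol genes, SQLE, the squalene epoxidase, stood at 92.1 and 135 CPM in the Fc libraries at 6 h and 369 and 374 CPM at 72 h (1.71 ± 0.20 (SE), adjusted p = 3.41e-05). It ran from 88.5 to 159 CPM (median 115) in the early libraries of all treatments and from 369 to 449 CPM (median 411) in the late ones, with no overlap. LSS, which closes the sterol ring as lanosterol synthase, stood at 6.84 and 6.48 CPM and 38.6 and 39.8 CPM (2.55 ± 0.28 (SE), adjusted p = 2.63e-05). The LSS libraries of 72 h under EGFhigh and EGFlow, at 17.6 and 26.8 CPM, were the lowest late ones and still above every early library (8.81 CPM at most). DHCR7, which catalyses the last step to cholesterol in the Kandutsch-Russell route, stood at 20.3 and 24.4 CPM and 90.9 and 87.6 CPM (2.0 ± 0.20 (SE), adjusted p = 9.57e-06). FDFT1, the squalene synthase, gave 1.51 ± 0.16 (SE), adjusted p = 2.11e-05, and EBP, the sterol isomerase, gave 1.31 ± 0.19 (SE), adjusted p = 0.000324. MSMO1 and HSD17B7 completed the called sterol genes, with log2 fold changes of 1.46 and 2.36.

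Among the fatty acid genes, SCD, the stearoyl-CoA desaturase, stood at 130.3 and 147 CPM in the Fc libraries at 6 h and 564 and 621 CPM at 72 h (2.09 ± 0.20 (SE), adjusted p = 6.29e-06). Over all treatments its early libraries reached 147 CPM and its late ones began at 502 CPM. FASN, the fatty acid synthase, stood at 294 and 395 CPM at 6 h and 626 and 911 CPM at 72 h (1.16 ± 0.19 (SE), adjusted p = 0.00151), with a wide gap between its late libraries. FADS1, a delta-5 desaturase, ACLY, which makes cytosolic acetyl-CoA from citrate, and ELOVL6, which elongates palmitate, were called at 1.22, 0.74 and 0.97. ACLY and ELOVL6 lost the call without any 1 of the 4 libraries, at 0.71 to 0.76 and 0.83 to 1.10, and FASN lost it without replicate 4 of 72 h (0.86). Among the other called members, MSMO1 lost it without replicate 3 of 6 h (1.30). STARD4 lost it without replicate 4 of 6 h (2.91) or replicate 3 of 72 h (2.77). Each of these fits left 1 library in a group. STARD4 stood at only 1.37 and 0.709 CPM in the Fc libraries of 6 h. ACACA, the acetyl-CoA carboxylase, gave 0.66 ± 0.19 (SE), adjusted p = 0.0777 and was not called, although its 8 late libraries, from 114 CPM, lay above the 12 early ones, up to 100.2 CPM. NCEH1, a cholesterol ester hydrolase, stood at 12.7 and 22.4 CPM and 24.9 and 23.5 CPM and gave 0.46 ± 0.35 (SE), adjusted p = 0.577.

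Under each of the 6 FaDu treatments 30 or 31 of the 33 members had a higher mean CPM at 72 h than at 6 h, and 20 to 25 were over 2-fold higher. Of all 16022 genes, 46.4% to 52.2% were higher and 8.35% to 14.4% were over 2-fold higher. Each treatment but Fc had only 1 library at 6 h or at 72 h. The median log2 ratio over the members lay between 1.13 under EGFhigh and 1.64 under EpEX-Fc, while that over all 16022 genes lay between -0.03 and 0.03. In 23 of the 33 members every one of the 8 libraries of 72 h was above every one of the 12 libraries of 0 and 6 h, a pattern held by 1.52% of all genes tested, and in 0 members were they all below, against 2.14% of all genes. Total counts of the libraries overlapped between the times, from 7889819 to 11815347 at 6 h and from 6217938 to 12442349 at 72 h. In Kyse30, with 24 early and 19 late libraries, the same separation held for 0 of 33 members in either direction, against 0.13% of genes above and 0.111% below. With more libraries this is a stricter condition than in FaDu, and 0 is near those shares, so it is no result about the members. The FaDu libraries labelled replicate 1 or 2 did not show the separation. INSIG1 there ran from 34.5 to 168 CPM in 11 libraries of 0 and 6 h (median 78.9) and from 32.2 to 270.5 CPM in 10 libraries of 72 h (median 71.3). These CPM are over total counts without TMM scaling, unlike those of replicates 3 and 4. With all 41 FaDu libraries in the fit, 0 members and 0 of 18533 genes were called in the Fc comparison by edgeR. The fit of replicates 3 and 4 called 462 of 16022 genes. With all 41 libraries the median log2 fold change fell to 0.21, and ACAT2, ACLY, DHCR7, FDFT1, HMGCS1, IDI1, MSMO1 and SCD turned to values below 0. With a replicate block in the fit of all 41 libraries 0 members and 0 genes were called too, the median was 0.57 and these 8 genes were above 0. The rise is a result of the libraries of replicates 3 and 4, and the part that differences between the replicate sets have in it was not tested.

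**Figure D2:**
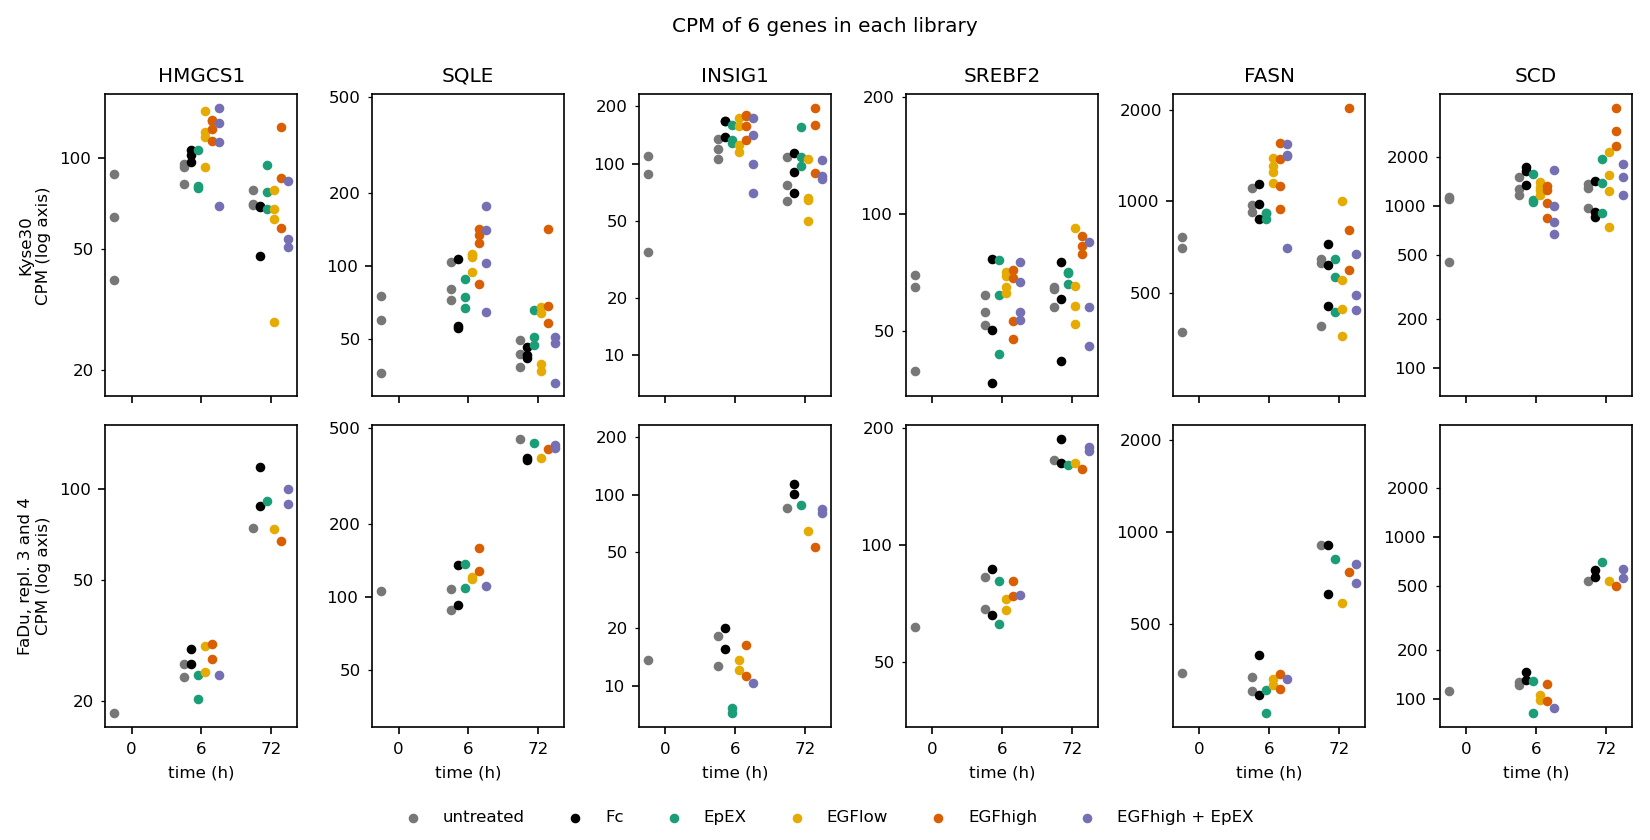
CPM on a log axis of HMGCS1, SQLE, INSIG1, SREBF2, FASN and SCD in every library of Kyse30 (top) and of FaDu replicates 3 and 4 (bottom) against time, with 1 point per library and colours for treatments. In FaDu the late points of INSIG1 start at 53.5 CPM, above the highest early point at 20.05 CPM, while in Kyse30 early and late points overlap.

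Kyse30 gave few calls over the same interval, all of them lower at 72 h. In Fc-treated Kyse30 cells (3 libraries each) 0 members were higher and 3 lower at 72 h than at 6 h, with a median log2 fold change of -0.55 over the members, and 2.25% of 15350 genes were called. FDFT1 stood at 206, 185 and 183 CPM at 6 h and 97.2, 107 and 71.6 CPM at 72 h (-1.05 ± 0.21 (SE), adjusted p = 0.00362). ACLY stood at 258, 256 and 194 CPM and 119, 97.9 and 119.6 CPM (-1.07 ± 0.26 (SE), adjusted p = 0.0184). IDI1, the isopentenyl diphosphate isomerase, stood at 76.2, 74.2 and 51.6 CPM and 25.3, 35.99 and 9.03 CPM (-1.50 ± 0.38 (SE), adjusted p = 0.0237). In all 3 genes the late libraries lay below the early ones. Leaving out Fc replicate 1 or 3 of 6 h, or replicate 3 of 72 h, left 1 called member, leaving out replicate 1 or 2 of 72 h left 2, and 0 were called when only the groups compared were fitted. INSIG1 gave -0.78 ± 0.31 (SE), adjusted p = 0.175, HMGCS1 -0.71 ± 0.28 (SE), adjusted p = 0.18 and SQLE -0.73 ± 0.31 (SE), adjusted p = 0.219, all with late libraries below early ones and none called. This Fc comparison in Kyse30 and its difference from FaDu were added after the data had been seen.

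Untreated Kyse30 cells also had few calls: 0 members were higher and 2 lower at 72 h than at 6 h, with a median of -0.40, where 1.55% of genes were called. ACAT2 stood at 81.2, 138 and 58.6 CPM at 6 h and 39.5, 45.8 and 34.1 CPM at 72 h (-1.22 ± 0.31 (SE), adjusted p = 0.0275), and FDFT1 at 162, 166 and 169.6 CPM and 106, 104 and 70.8 CPM (-0.83 ± 0.21 (SE), adjusted p = 0.0288). The late libraries were below the early ones in both genes. Without untreated replicate 3 of 6 h, or replicate 2 or 3 of 72 h, 0 members were called, and without any other library 1 was. SQLE, NCEH1 and FASN gave -0.97, -1.01 and -0.85 with adjusted p of 0.105, 0.132 and 0.204 in edgeR, with no overlap between the times. Between 0 and 6 h in untreated Kyse30 cells 0 members were called by edgeR and 0 by DESeq2, and 0% of genes were. An unadjusted p under 0.05 in edgeR held for 7 members, all of them higher at 6 h. The share of all genes at that unadjusted p is not given here. Replicate 1 of 0 h was the lowest of the 3 libraries of its group for INSIG1 (34.4, 110.3 and 88.8 CPM), SCD (454, 1099.8 and 1147 CPM) and FASN (373, 765 and 706 CPM).

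The difference between the lines in this change was itself tested as an interaction on the Fc libraries. In 13 of the 33 members the change from 6 to 72 h was more positive in FaDu than in Kyse30, in 0 it was less positive, and 0.392% of 19634 genes were called. The median difference over the members was 1.84 on the log2 scale. The 13 were 5 mevalonate genes (ACAT2, HMGCS1, MVK, MVD and IDI1), 5 sterol genes (FDFT1, SQLE, LSS, MSMO1 and DHCR7), INSIG1, ACLY and SCD. FDFT1 differed by 2.54 ± 0.31 (SE), adjusted p = 7.15e-07, INSIG1 by 3.35 ± 0.47 (SE), adjusted p = 1.52e-05 and LSS by 3.31 ± 0.48 (SE), adjusted p = 1.99e-05. HMGCS1 differed by 2.56 ± 0.43 (SE), adjusted p = 0.000301, SCD by 2.61 ± 0.47 (SE), adjusted p = 0.00101 and SQLE by 2.41 ± 0.46 (SE), adjusted p = 0.00231. FASN (1.86 ± 0.49 (SE), adjusted p = 0.0664), SREBF2 (1.05 ± 0.38 (SE), adjusted p = 0.31), NCEH1 (1.48 ± 0.53 (SE), adjusted p = 0.31) and SREBF1 (0.99 ± 0.67 (SE), adjusted p = 0.772) were not called. Leaving out FaDu Fc replicate 3 of 6 h left 8 called members and leaving out FaDu Fc replicate 3 of 72 h left 9, and ACLY, MSMO1, MVK, MVD and SQLE were among the calls lost without the first. With all FaDu libraries 0 members and 0 of 19519 genes were called, and INSIG1 differed by 1.89 (adjusted p = 0.953 in edgeR).

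**Figure D3:**
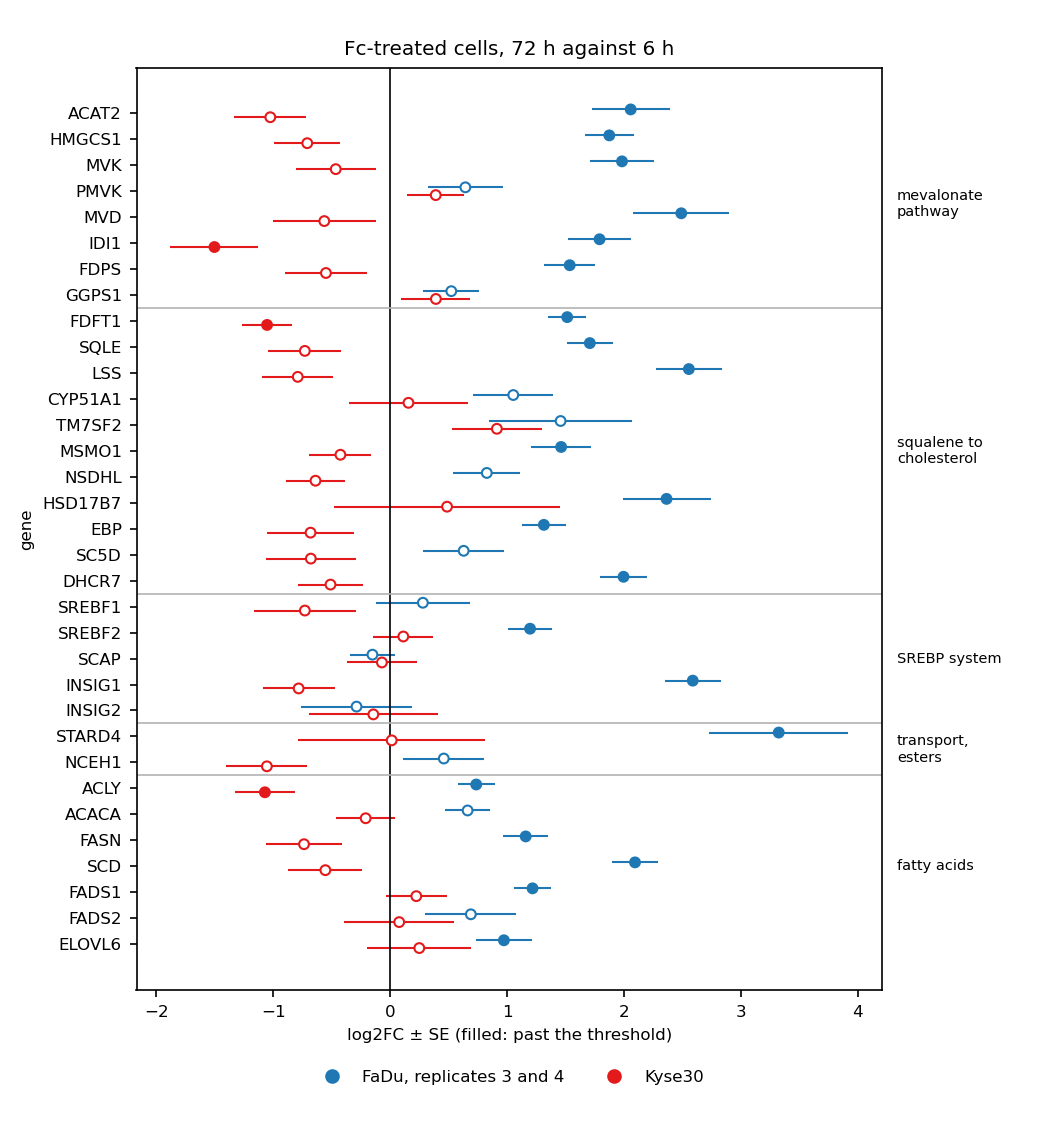
Log2 fold change of 72 h over 6 h in Fc-treated cells, with its standard error as a line, for each of the 33 members, for FaDu replicates 3 and 4 and for Kyse30, with filled points for called members. The FaDu estimates of 31 members lie above 0 and the Kyse30 estimates of 10 do. By mean CPM under Fc, 52.2% of all genes tested in FaDu and 51.9% in Kyse30 were higher at 72 h.

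Untreated cells of the lines already differed at 6 h. In Kyse30 17 members were higher and 2 lower than in FaDu (3 against 2 libraries), with a median log2 fold change of 0.96, in a comparison in which 22.4% of 19634 genes were called. Higher in Kyse30 were 6 of 8 mevalonate genes, 6 of 11 sterol genes, the regulators INSIG1 and SREBF1, and ACLY, FASN and SCD. The lower ones were SCAP (-0.89 ± 0.30 (SE), adjusted p = 0.0232) and ACACA (-0.72 ± 0.27 (SE), adjusted p = 0.0433). DHCR7 had the widest gap, with a log2 fold change of 4.78 ± 0.37 (SE), adjusted p = 2.37e-15. In the order of adjusted p followed SCD (3.38 ± 0.38 (SE), adjusted p = 3.5e-10), LSS (3.38 ± 0.38 (SE), adjusted p = 4.46e-10), ACAT2 (3.09 ± 0.39 (SE), adjusted p = 8.98e-09) and INSIG1 (2.92 ± 0.37 (SE), adjusted p = 9.58e-09). HMGCS1, MVK, MVD, IDI1 and FASN gave 1.81, 2.15, 2.69, 1.88 and 1.62, with every Kyse30 library above both FaDu libraries. SQLE (-0.23 ± 0.32 (SE), adjusted p = 0.66), SREBF2 (-0.45 ± 0.26 (SE), adjusted p = 0.234) and NCEH1 (0.20 ± 0.38 (SE), adjusted p = 0.774) were not called. Without FaDu replicate 3 the count was 13 and without replicate 4 it was 12. ACACA lost its call without any 1 of the 5 libraries and SCAP without either FaDu library or Kyse30 replicate 1 or 3, and FDPS lost its call without either FaDu library or Kyse30 replicate 3. With all FaDu libraries 4 members were called, all higher, the median fell to 0.16, and 953 of 19519 genes were called. There ACAT2 gave 0.86, INSIG1 1.84, HMGCS1 0.69, MVK 1.54, MVD 0.05, IDI1 0.97, FASN 1.54, SCAP -0.62 and ACACA -0.21, none of them called.

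INSIG1 stood at 119.6, 135 and 106 CPM in untreated Kyse30 and 18.3 and 12.8 CPM in untreated FaDu at 6 h. At 72 h untreated Kyse30 stood at 108, 77.5 and 63.6 CPM and the untreated FaDu library at 85 CPM. The values of each line were scaled separately, the Kyse30 libraries were all above the FaDu libraries at 6 h, and the single FaDu library lay inside the Kyse30 range at 72 h. SQLE went from 72.1, 103 and 80.2 CPM in Kyse30 and 88.5 and 108 CPM in FaDu at 6 h to 43.3, 38.2 and 49.7 and 449 CPM at 72 h, so that its ranges overlapped at 6 h and lay apart at 72 h, with FaDu higher. SCD stayed higher in Kyse30 at both times, with 1301, 973 and 1367 CPM against 537 CPM in untreated cells at 72 h.

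EGFhigh for 72 h was the condition used to bring about the transition in Kyse30. Against untreated cells of 72 h (3 libraries each) 6 members were higher and 0 lower, 6.2% of genes were called, and the median over the members was 0.34. The 6 were the fatty acid genes ELOVL6, SCD and FASN, the sterol genes MSMO1 and SQLE, and NCEH1. DESeq2 also called 6 members. No mevalonate gene and no regulator was called.

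ELOVL6 stood at 67.3, 48.3 and 33.7 CPM under EGFhigh and 7.26, 10.9 and 5.32 CPM in untreated cells. The treated libraries all lay above the untreated ones, and the log2 fold change was 2.67 ± 0.46 (SE), adjusted p = 0.000152. It was called under every alternative and without any single library, with values from 2.39 to 3.07. SCD stood at 2337, 4027 and 2908 CPM against 1301, 973 and 1367 CPM (1.35 ± 0.32 (SE), adjusted p = 0.00587), with no overlap. MSMO1, a sterol C4-methyl oxidase, stood at 132, 190.2 and 118 CPM against 77.95, 58.4 and 68.3 CPM (1.10 ± 0.27 (SE), adjusted p = 0.00697), again with no overlap. Both lost the call without EGFhigh replicate 3, with adjusted p of 0.0506 for SCD and 0.0692 for MSMO1 in edgeR.

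SQLE stood at 142, 68.5 and 58.1 CPM under EGFhigh and 43.3, 38.2 and 49.7 CPM in untreated cells (1.04 ± 0.31 (SE), adjusted p = 0.0341). FASN stood at 2023, 808 and 597 CPM against 627, 646 and 391 CPM (1.04 ± 0.32 (SE), adjusted p = 0.0434), and its libraries overlapped. In both genes EGFhigh replicate 1 was far above the other libraries. Without it SQLE gave 0.53 (adjusted p = 0.398 in edgeR) and FASN 0.34 (adjusted p = 0.643), 3 members were called, and the median over the members was 0.11. Without untreated replicate 2 or 3 of 72 h 3 members were called, without untreated replicate 1 it was 4, and without EGFhigh replicate 4 it was 10. NCEH1 stood at 29.04, 19.3 and 17.8 CPM against 12.7, 6.87 and 7.57 CPM (1.27 ± 0.34 (SE), adjusted p = 0.0179), with no overlap. The NCEH1 call was lost without untreated replicate 2 (adjusted p = 0.102 in edgeR) or 3 (0.091) or EGFhigh replicate 1 (0.118), and when only the groups compared were fitted (0.092). The calls of SQLE and FASN were lost without any 1 untreated library. NCEH1 is among the genes the study selected from these same libraries, so its direction is not independent evidence. Of the regulators, INSIG1 stood at 195, 159.8 and 89.5 CPM against 108, 77.5 and 63.6 CPM (0.83 ± 0.31 (SE), adjusted p = 0.101), and SREBF2 at 78.7, 88.1 and 82.9 CPM against 64.9, 64.1 and 57.7 CPM (0.42 ± 0.25 (SE), adjusted p = 0.381). SREBF1 ran from 37.3 to 198 CPM over the 3 EGFhigh libraries, and HMGCS1 gave 0.31 ± 0.28 (SE), adjusted p = 0.606.

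**Figure D4:**
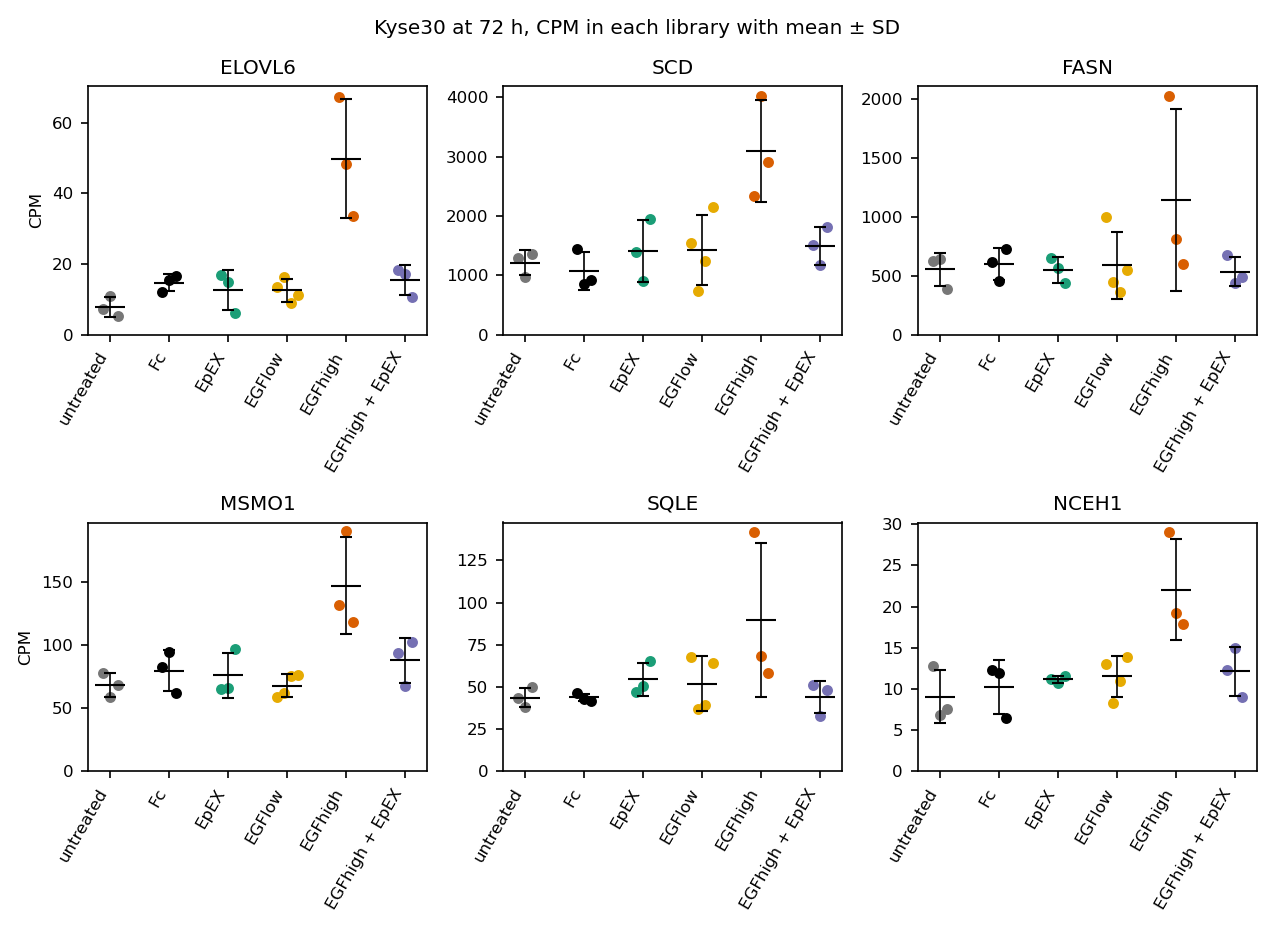
CPM of ELOVL6, SCD, MSMO1, NCEH1, SQLE and FASN in each Kyse30 library of 72 h, by treatment, with 1 point per library and the group mean with its SD as a bar. ELOVL6 under EGFhigh (33.7 to 67.3 CPM) lies above every other group, whose highest library is at 18.5 CPM, and 1 EGFhigh library stands far above the rest for FASN and SQLE.

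At 72 h the EGF doses could be set against each other. EGFhigh against EGFlow called 4 members higher and 0 lower (3.73% of genes, median 0.32 over the members). ELOVL6 stood at 13.5, 16.4, 9.03 and 11.2 CPM under EGFlow, all below the EGFhigh libraries (1.98 ± 0.40 (SE), adjusted p = 0.00178). MSMO1 stood at 58.4, 61.8, 75.1 and 76.02 CPM (1.11 ± 0.24 (SE), adjusted p = 0.00406) and SCD at 1552, 745, 1237 and 2158 CPM (1.12 ± 0.29 (SE), adjusted p = 0.0187), also with no overlap. INSIG1 stood at 105, 66.4, 49.96 and 64.7 CPM under EGFlow (1.05 ± 0.28 (SE), adjusted p = 0.0247), and its libraries overlapped with those of EGFhigh. INSIG1 lost its call without EGFhigh replicate 1 or 3 and without EGFlow replicate 2, 3 or 4. SCD lost it without EGFhigh replicate 3 (adjusted p = 0.151 in edgeR) or EGFlow replicate 2 (0.101) or 3 (0.0585), and MSMO1 without EGFhigh replicate 3 (0.0648). Without EGFhigh replicate 1 the median over the members was 0.11. Without EGFlow replicate 2 or 3 the count of called members was 2, and without EGFlow replicate 1 or EGFhigh replicate 4 it was 7. FASN (0.95 ± 0.30 (SE), adjusted p = 0.0612), SQLE (0.78 ± 0.28 (SE), adjusted p = 0.124) and NCEH1 (0.94 ± 0.31 (SE), adjusted p = 0.0888) were not called. EGFlow against untreated cells at 72 h called 0 members by edgeR and 0 by DESeq2, and 0% of genes were called. An unadjusted p under 0.05 in edgeR held for 0 members and for 2.86% of all genes. In that comparison ELOVL6 gave 0.69 ± 0.42 (SE), adjusted p = 1, and SCD 0.23 ± 0.30 (SE), adjusted p = 1.

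EpEX-Fc was added to EGFhigh to ask whether it opposes the response. At 72 h, against EGFhigh alone 0 members were higher and 2 lower, 3.58% of genes were called, and the median over the members was -0.41. ELOVL6 stood at 18.5, 17.2 and 10.7 CPM under the combination, all below the EGFhigh libraries (-1.69 ± 0.44 (SE), adjusted p = 0.0195). FASN stood at 673, 440.3 and 492 CPM (-1.10 ± 0.33 (SE), adjusted p = 0.0473), with libraries that overlapped. DESeq2 called 5 members. SCD at 1515, 1166 and 1814 CPM (-1.04 ± 0.32 (SE), adjusted p = 0.0542), SQLE at 50.9, 33.03 and 48.2 CPM (-1.02 ± 0.31 (SE), adjusted p = 0.0538) and NCEH1 at 12.3, 15.01 and 9.07 CPM (-0.87 ± 0.34 (SE), adjusted p = 0.166) had every combination library below every EGFhigh library and were not called by edgeR. Without replicate 2 or 3 of the combination 0 members were called, and without EGFhigh replicate 1 neither ELOVL6 (-1.41, adjusted p = 0.113 in edgeR) nor FASN (-0.39, adjusted p = 0.64) was, 1 other member was, and the median was -0.20. This comparison shares its EGFhigh libraries with those of EGFhigh against untreated and EGFlow cells. Against Fc the combination called 0 members by edgeR and 0 by DESeq2, with 1 at an unadjusted p under 0.05 and 0% of genes called, and ELOVL6 gave 0.08 ± 0.44 (SE), adjusted p = 1. EpEX-Fc alone against Fc also called 0 members by either tool, with 1 at an unadjusted p under 0.05, where 0% of genes were called. Fc against untreated cells at 72 h called 0 of the members by edgeR and by DESeq2, with 1 at an unadjusted p under 0.05 and 0% of genes called.

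**Figure D5:**
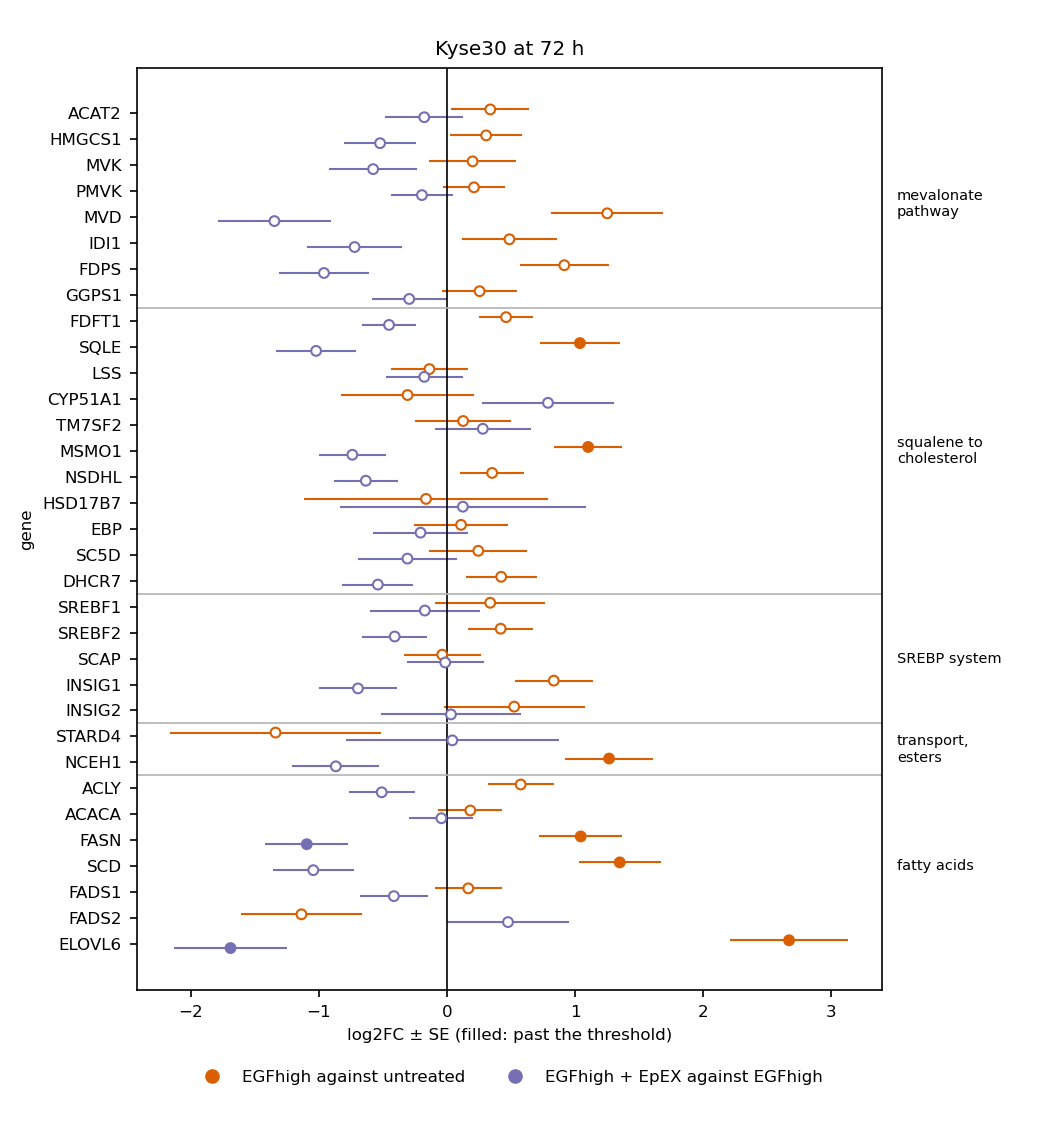
Log2 fold change, with its standard error as a line, for each of the 33 members in Kyse30 at 72 h, for EGFhigh against untreated cells and for EGFhigh + EpEX-Fc against EGFhigh alone, with filled points for called members. Of the 33 members 27 lie above 0 in the first comparison and 6 in the second, and the comparisons share the EGFhigh libraries. Without EGFhigh replicate 1 the medians over the members were 0.11 and -0.20. The share of all genes above 0 is not given here.

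At 6 h in Kyse30 few members were called under any treatment. EGFlow against untreated cells called 0 members by edgeR and 0 by DESeq2, where 1.5% of genes were called. At an unadjusted p under 0.05 in edgeR were 2 members (6.06%), against 13.7% of all genes. EGFhigh against untreated cells also called 0 by both tools, where 2.55% of genes were called. Here 2 members (6.06%) had an unadjusted p under 0.05 in edgeR, against 15.2% of all genes. The median over the members was 0.22 under EGFlow and 0.09 under EGFhigh. EpEX-Fc against Fc called 0 members by both tools, where 0.0261% of genes were called. Here 4 members (12.1%) had an unadjusted p under 0.05 in edgeR, against 9.45% of all genes. EGFhigh against EGFlow (0 at an unadjusted p under 0.05), EGFhigh + EpEX-Fc against EGFhigh (1) and Fc against untreated cells (0) gave 0 called members by edgeR and by DESeq2, and 0% of genes were called in each. ELOVL6, called at 72 h, stood at 13.9, 19.7, 12.3 and 9.87 CPM under EGFhigh and 16.3, 13.6 and 7.16 CPM in untreated cells at 6 h. These libraries overlapped, and the log2 fold change was 0.17 ± 0.41 (SE), adjusted p = 0.902. FASN (0.32 ± 0.30 (SE), adjusted p = 0.688), SQLE (0.51 ± 0.29 (SE), adjusted p = 0.415) and INSIG1 (0.42 ± 0.29 (SE), adjusted p = 0.531) had 95% intervals of -0.27 to 0.91, -0.05 to 1.08 and -0.14 to 0.99.

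EGFhigh + EpEX-Fc against Fc at 6 h called LSS lower, 1 of 33 members, where 4.52% of genes were called and the median over the members was -0.12. LSS stood at 25.7, 41.1, 45.5 and 51.97 CPM under the combination and 88.6, 80.2 and 76.9 CPM under Fc, with no overlap (-0.99 ± 0.28 (SE), adjusted p = 0.0292). The call was lost without replicate 1 or 2 of the combination and without any single Fc library, with adjusted p from 0.057 to 0.128 in edgeR. SREBF1 stood at 82.3, 75.7, 52.1 and 105 CPM against 220.2, 132 and 149.6 CPM, and SQLE at 64.9, 141, 177 and 103 CPM against 56.6, 107 and 55.6 CPM. Their log2 fold changes of -1.08 ± 0.40 (SE), adjusted p = 0.11, and 0.74 ± 0.29 (SE), adjusted p = 0.137, had opposite signs and were not called.

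Whether the response to EGFhigh in Kyse30 differed between 72 and 6 h was tested as an interaction, which called ELOVL6 alone among the members (1.01% of genes, median 0.41 over the members). Its response was larger at 72 h by 2.50 ± 0.61 (SE), adjusted p = 0.026. The call was lost without EGFhigh replicate 3 of 6 h or replicate 1 of 72 h, without untreated replicate 1 or 3 of 6 h and without untreated replicate 1 or 3 of 72 h, with values from 2.21 to 2.45. Without EGFhigh replicate 1 of 72 h 1 other member was called and the median over the members was 0.075. SCD (1.58 ± 0.43 (SE), adjusted p = 0.0582) and NCEH1 (0.81 ± 0.46 (SE), adjusted p = 0.447) were not called.

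In FaDu at 6 h, EpEX-Fc against Fc called 0 members higher and 2 lower (3.5% of 16022 genes, median -0.10 over the members). INSIG1 stood at 7.20 and 7.66 CPM under EpEX-Fc and 15.5 and 20.05 CPM under Fc (-1.26 ± 0.25 (SE), adjusted p = 0.00688). ELOVL6 stood at 19.3 and 13.6 CPM against 30.8 and 33.5 CPM (-0.98 ± 0.25 (SE), adjusted p = 0.0369). The groups did not overlap in either gene, but the untreated libraries of 6 h, at 18.3 and 12.8 CPM for INSIG1 and 21.7 and 21.4 CPM for ELOVL6, overlapped those of Fc for INSIG1 and lay between Fc and EpEX-Fc for ELOVL6. Both calls were lost without EpEX-Fc replicate 4 or Fc replicate 4 and when only the groups compared were fitted, and that of ELOVL6 also without Fc replicate 3. With all FaDu libraries INSIG1 gave -0.61 and ELOVL6 -1.79, neither called by edgeR, and 0 of 18533 genes were called. At 72 h the single EpEX-Fc library stood at 87.9 CPM for INSIG1, against 113 and 101 CPM under Fc.

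EGFlow against untreated FaDu cells at 6 h called 0 members by edgeR and 0 by DESeq2, with 5 at an unadjusted p under 0.05 and 3.45% of genes called. EGFhigh gave 0 by both tools, with 4 at an unadjusted p under 0.05 and 3.06% of genes called. The medians over the members were -0.09 and -0.05. NCEH1 stood at 24.6 and 38.2 CPM under EGFhigh, 25.4 and 31.6 CPM under EGFlow and 12.8 and 18.8 CPM in untreated cells. Its EGF libraries were all above the untreated ones, with log2 fold changes of 0.99 ± 0.35 (SE), adjusted p = 0.17, and 0.85 ± 0.35 (SE), adjusted p = 0.245, neither of them called. At 72 h the single EGFhigh library stood at 59.7 CPM for NCEH1, the untreated one at 20.1 CPM and the EGFlow one at 29.3 CPM. SQLE stood at 128 and 159 CPM under EGFhigh and 88.5 and 108 CPM in untreated cells at 6 h (0.55 ± 0.19 (SE), adjusted p = 0.173). Fc against untreated cells at 6 h called 0 members by both tools, with 1 at an unadjusted p under 0.05 and 0% of genes called. EGFhigh + EpEX-Fc against Fc at 72 h called 0 members by both tools, 0 had an unadjusted p under 0.05, and 0.818% of genes were called. The response to EGFhigh at 6 h was not shown to differ between the lines for any member, with 0 called by edgeR and by DESeq2, 0 at an unadjusted p under 0.05 and 0.0611% of genes called.

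At 72 h the single FaDu library under EGFhigh was the lowest of the 8 late libraries for INSIG1 (53.5 CPM, against 85 CPM untreated), LSS (17.6 against 34 CPM), MVD (22.4 against 58.4 CPM) and HMGCS1 (67.5 against 74.4 CPM). MSMO1 was instead highest in that library, at 162 CPM against 98.1 CPM untreated. ELOVL6, called under EGFhigh in Kyse30, stood at 61.3 CPM there and at 74.1 CPM in the untreated FaDu library. With 1 library each, these differences have no replicate check.

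Other genes of lipid metabolism that are not among the 33 were followed as lists, one of 25 further synthesis and SREBP processing genes and one of 18 transport, storage and sterol sensing genes. In Fc-treated FaDu cells from 6 to 72 h, 3 of 24 tested genes of the first list rose and 0 fell, which were the mitochondrial citrate carrier SLC25A1 (1.02 ± 0.19 (SE), adjusted p = 0.00484), the acyl-CoA synthetase ACSL3 (0.91 ± 0.21 (SE), adjusted p = 0.0241) and TMEM97 (0.84 ± 0.22 (SE), adjusted p = 0.0463). Of 17 tested genes of the second list 0 rose and VLDLR, a lipoprotein receptor, fell (-2.11 ± 0.36 (SE), adjusted p = 0.00171). The lists' medians were 0.35 and 0.02. In this comparison 2.88% of all genes tested were called. With all FaDu libraries in the fit, 0 of 18533 genes were called, so these calls ended there. Under EGFhigh at 72 h against untreated cells, 6.2% of the Kyse30 genes tested were called. In that comparison 3 of 24 genes of the first list were higher and 0 lower. These were the acetyl-CoA synthetase ACSS2 (1.20 ± 0.33 (SE), adjusted p = 0.0184), the elongase ELOVL1 (1.26 ± 0.34 (SE), adjusted p = 0.0163) and the phosphatidate phosphatase LPIN1 (1.15 ± 0.29 (SE), adjusted p = 0.00969). The 3 were also higher than under EGFlow (1.64, 1.10 and 0.99) and lower with EpEX-Fc added (-1.50, -1.60 and -1.06), in comparisons that share the EGFhigh libraries. Of 15 tested genes of the second list, the cholesterol efflux pump ABCA1 was higher under EGFhigh against untreated cells (2.93 ± 0.86 (SE), adjusted p = 0.0304), with overlapping libraries, and 0 were lower.

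In FaDu at 6 h, LPIN1 and the acyl-CoA synthetase ACSL4 were higher under EGFlow, EGFhigh and EpEX-Fc against their controls, 2 of 24 genes of the first list in each. Of all genes tested, 3.45%, 3.06% and 3.5% were called in these comparisons. With all FaDu libraries in the fit, 0 of 18533 genes were called in each, so the FaDu calls of this paragraph ended there. LPIN1 stood at 106 and 70.3 CPM under EGFlow, 128 and 57.4 CPM under EGFhigh and 116 and 57.1 CPM under EpEX-Fc. It stood at 26.2 and 31.9 CPM in untreated cells and 24.1 and 29.5 CPM under Fc, below all of these. The single EGFhigh + EpEX-Fc library of 6 h stood at 45.2 CPM. ACSL4 stood at 59 and 78.7 CPM, 38.1 and 76.3 CPM and 49.7 and 74.2 CPM under the same treatments, at 20.4 and 25.6 CPM in untreated cells and at 23.3 CPM in the combination library. TMEM97 was lower under EpEX-Fc (-0.90 ± 0.22 (SE), adjusted p = 0.0286). Of 17 genes of the second list, PLIN2, a lipid droplet coat protein, was higher under EGFlow and EpEX-Fc (0.68 and 0.69), MYLIP was lower under EGFlow (-1.11), and the sterol receptor gene NR1H3 was lower under EGFhigh (-2.61). NR1H3 stood at 0.666 and 0.771 CPM under EGFhigh, close to the floor of 3 counts, and at 5.92 and 2.96 CPM in untreated cells. In Kyse30 at 6 h the combination against Fc raised ELOVL1 (1.35) and lowered ERG28, ACSL1 and MYLIP (-1.08, -1.03 and -1.74), while the other 6 h comparisons of Kyse30 called 0 genes of either list in edgeR. With time LPIN1 fell in untreated Kyse30 cells (-1.23 ± 0.29 (SE), adjusted p = 0.0164), and LPIN1 and the malic enzyme gene ME1 fell under Fc (-1.19 and -1.62).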

How the data were processed

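RNA of 84 libraries (43 of Kyse30 and 41 of FaDu) was sequenced from the 3′ end with the QuantSeq FWD kit. The deposited files hold raw read counts per gene, 1 file per library, which the authors made with STAR and HTSeq on GRCh38 per the labels and the submitters' processing notes; versions, the annotation release and any use of molecular identifiers are not given in the sources used here. The 5 tally rows that name no gene were left out of library sizes and tests; they held 33.7 to 52.1% of the listed reads in Kyse30 and 50.3 to 60.3% in FaDu. Symbols came from GENCODE 29, which matched 58275 of 58395 rows. Counts were analysed in R 4.3.3 with edgeR 4.0.16: TMM scaling, a filter on low counts (filterByExpr over the groups, with 10 as its minimum count and 15 as its minimum total), and the quasi-likelihood test with 1 mean per group, fitted on the 43 Kyse30 libraries (15350 genes), the 20 FaDu libraries of replicates 3 and 4 (16022 genes) or all 63 (19634 genes). All 33 members passed the filter in each fit. p-values were adjusted by Benjamini-Hochberg over all genes of a fit. The thresholds for a call (adjusted p up to 0.05, log2 fold change beyond 0.5 in size) are those of the study's methods. Intervals are 95%, and counting floors of 3 counts cover counting error only. Groups tested held 2 to 4 libraries. Groups with 1 library were given no test. The 21 FaDu libraries labelled replicate 1 or 2 were kept out of these fits and entered only as an alternative.

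The alternatives were RLE size factors in edgeR, the DESeq2 1.42.0 test, no filter on low counts, a fit of only the groups compared, a replicate block, all FaDu libraries, and leaving out each library in turn. The quasi-likelihood dispersion of edgeR 4, the Fc comparison over time in Kyse30, its interaction with the line, and all FaDu libraries with a block were added after the data had been seen. The scripts were tested on simulated counts. In each comparison the called members are named, at most 10 in the order of adjusted p, and INSIG1, HMGCS1, SQLE, SREBF1, SREBF2, FASN, SCD and NCEH1 are always described. The members and lists were chosen with earlier results of these data known. No protein sequence was used, and promoter windows of 4 members were not in the RefSeq table used.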

Additional observations from a re-analysis of the deposited data

Results flagged for a closer look

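In Kyse30 under EGFhigh + EpEX-Fc at 6 h, FASN stood at 702, 1421, 1541 and 1408 CPM in replicates 1 to 4. Replicate 1, at 702 CPM, lay so far below the next library, at 1408 CPM, that its gap took 0.841 of the group's range. Such a gap is flagged by chance in about 1 of 20 groups, and 1 was flagged in 108 combinations of gene and group over 27 genes with groups of 4 libraries.

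The response of ELOVL6 to EGFhigh in Kyse30 was larger at 72 h than at 6 h by 2.50 ± 0.61 (SE), adjusted p = 0.026 in edgeR. The change of 13 members from 6 to 72 h under Fc was more positive in FaDu than in Kyse30 by edgeR's interaction test: FDFT1 (2.54 ± 0.31 (SE), adjusted p = 7.15e-07), INSIG1 (3.35 ± 0.47 (SE), adjusted p = 1.52e-05), LSS (3.31 ± 0.48 (SE), adjusted p = 1.99e-05), ACAT2 (3.05 ± 0.50 (SE), adjusted p = 0.000202), HMGCS1 (2.56 ± 0.43 (SE), adjusted p = 0.000301), DHCR7 (2.48 ± 0.42 (SE), adjusted p = 0.000477), IDI1 (3.27 ± 0.56 (SE), adjusted p = 0.000477), SCD (2.61 ± 0.47 (SE), adjusted p = 0.00101), SQLE (2.41 ± 0.46 (SE), adjusted p = 0.00231), ACLY (1.78 ± 0.39 (SE), adjusted p = 0.0135), MVK (2.42 ± 0.53 (SE), adjusted p = 0.0138), MSMO1 (1.86 ± 0.41 (SE), adjusted p = 0.0141) and MVD (3.02 ± 0.70 (SE), adjusted p = 0.0251).

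FDFT1 and FADS1 had log2 fold changes of opposite sign in the lines, with no overlap of libraries within either line, and the difference between the lines was not tested. They were picked from 27 genes over several pairs of comparisons. The FaDu groups held 2 libraries each, and the share of all genes with such a pattern was not counted. FDFT1 gave log2 fold changes of -0.15 in Kyse30 and 0.15 in FaDu under EGFlow at 6 h, -0.44 and 0.33 under EpEX-Fc against Fc at 6 h, and 0.21 and -0.15 under Fc against untreated cells at 6 h. The last 2 comparisons of FDFT1 share their Fc libraries. FADS1 gave -0.42 in Kyse30 and 0.04 in FaDu under EGFhigh + EpEX-Fc against Fc at 72 h. In FaDu it stood at 240.7 and 237 CPM under the combination and 236.5 and 228.9 CPM under Fc, a small difference.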

How the results depend on the processing

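The count of called members was equal to its value in the report, or within 1.5 times of it, in 145 of 173 comparisons. Each comparison set a result against an alternative other than leaving out a library. Counts of 0 that stayed 0 are included, so the 145 do not show how far calls held. Direction was not compared in this count. With all FaDu libraries the rise from 6 to 72 h under Fc called 0 members, and ACAT2, ACLY, DHCR7, FDFT1, HMGCS1, IDI1, MSMO1 and SCD reversed, at -0.58, -0.0089, -0.53, -0.28, -0.62, -0.18, -0.21 and -0.0035. With a replicate block on the same libraries 0 were also called, but the median was 0.57 and ACAT2, DHCR7, HMGCS1, IDI1 and SCD were at 0.82, 0.57, 0.48, 0.60 and 0.62. The cause was not tested. On the same libraries EpEX-Fc against Fc at 6 h called 0 members with and without the block, the interaction of line and time 0, and Kyse30 against FaDu 4. Of all genes, these fits called 0 of 18533 in the Fc comparison over time and under EpEX-Fc. They called 0 of 19519 for the interaction and 953 of 19519 between the lines. Without the filter on low counts the calls were 1 for EGFhigh in FaDu at 6 h, and in Kyse30 5 for untreated cells and 5 for Fc over time, 2 for the EGFhigh interaction, 2 for EGFhigh + EpEX-Fc against Fc at 6 h, 8 for EGFhigh against EGFlow and 6 for EpEX-Fc added to EGFhigh at 72 h. Fitting only the groups compared gave 0 for EpEX-Fc in FaDu at 6 h, and in Kyse30 5 for untreated cells and 0 for Fc over time, 0 for EGFhigh + EpEX-Fc and 2 for EGFlow at 6 h, 3 for EGFhigh against untreated cells, 2 for EGFhigh against EGFlow and 1 for EpEX-Fc added at 72 h. DESeq2 gave 2 for the EGFhigh interaction and 5 for EpEX-Fc added, and edgeR's newer dispersion 2 and 4. Leaving out 1 library gave 18 to 19 for FaDu over time, 8 to 15 for its interaction, 12 to 18 for Kyse30 against FaDu, 3 to 10 for EGFhigh against untreated cells, 2 to 7 for EGFhigh against EGFlow, 0 to 5 for EpEX-Fc added, 0 to 2 for the EGFhigh interaction, 1 to 4 for Fc and 0 to 1 for untreated Kyse30 over time, 0 to 1 for EGFhigh + EpEX-Fc at 6 h and 0 to 2 for EpEX-Fc in FaDu. Each call of a member was also checked under each alternative, so the same call enters several times. In these checks the call held in 398, was lost in 83 and reversed in 8 under the other alternatives. When a library was left out it held in 332 checks and was lost in 111. These are numbers of checks and do not show how many calls held.

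Deviations from the group means correlated between same-numbered libraries at 0.063 on average in Kyse30 (lowest -0.131) and 0.071 in FaDu (lowest -0.036). Between libraries of different numbers the averages were -0.022 in Kyse30 and -0.071 in FaDu. The FaDu groups used held 2 libraries each, so the deviations within a group mirror each other. The FaDu value for different numbers is therefore fixed by that for same numbers and adds nothing to it. Whether the numbers pair the libraries was not tested. A replicate block called 747 of 16022 genes for Fc-treated FaDu cells over time, against 462 without it, and no comparison had fewer called genes with it. With a replicate block 4 members were called for untreated Kyse30 over time, 5 for Fc over time and 1 for EGFhigh in FaDu at 6 h. The block ended the calls of FASN for EGFhigh against untreated cells (1.00, adjusted p = 0.0591) and for EpEX-Fc added to EGFhigh at 72 h (-1.06, adjusted p = 0.0543), and those of SCAP and FDPS between the lines (adjusted p = 0.101 and 0.176 in edgeR). Groups of 2 FaDu libraries, and Kyse30 libraries down to 1944948 counts, limit what the members with few reads, such as STARD4 and HSD17B7, can show.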
